A study of Homo sapiens with 16 samples.

Results

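The 5 genes that stayed higher in T-cell lines than in anaplastic large cell lymphoma (ALCL) lines after both had been treated with epigenetic drugs are described here: IGFBP2, ITM2A, TSPAN7, PNMA2 and PRKCB. These genes, of 11963 tested, were read by 8 of the 22283 probe sets on the array. They were chosen by the measured difference between treated T-cell and treated ALCL lines. In that difference they ranked 1 to 5, from 17.8-fold for IGFBP2 and 8.04-fold for ITM2A to 7.72-fold for TSPAN7, 6.67-fold for PNMA2 and 6.52-fold for PRKCB. The next gene in rank was MAD2L1, at 5.78-fold, followed by TRBC1 at 5.66-fold. The treated levels of the 5 genes and their contrast between the cell types are therefore a description and carry no test.

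The data were 16 HG-U133A arrays, on which a gene is read by sets of short oligonucleotide probes, with 8 cell lines each hybridised untreated and treated. The ALCL group comprised Karpas 299, SU-DHL-1, JB6 and FE-PD, and the T-cell group Jurkat, CCRF-CEM, Molt-4 and Molt-3. Treated cells had received 5-aza-2'-deoxycytidine at 1 µM over 6 days and, for the last 24 hours, trichostatin A at 625 nM as well. The replicates were different cell lines with 1 array each, so the spread is that between lines, not between cultures of a line, and the number of arrays limits the precision. As background, 5-aza-2'-deoxycytidine is built into DNA and traps the enzymes that methylate cytosine at CG dinucleotides, and trichostatin A inhibits histone deacetylases. As background too, the T-cell lines come from acute leukaemias and Molt-3 and Molt-4 from the same patient, while FE-PD, unlike the other ALCL lines, lacks the ALK fusion. Across genes, the untreated arrays of Molt-3 and Molt-4 were the closest of all pairs (r = 0.995), though only 0.0251% of their values were identical.

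Some measures of the whole arrays moved with treatment. A control probe set for 28S ribosomal RNA rose by more than 3 on the log2 scale on 5 treated arrays. These were the arrays of SU-DHL-1, JB6 and FE-PD among the ALCL lines and of both Molt lines. The hybridisation spikes were higher on the treated array in 7 of 8 lines, and so was the excess of 3' over 5' signal of ACTB. The standard deviation of all values on an array was lower on the treated array in all 8 lines, by most in Molt-4 (-0.299), JB6 (-0.232) and Molt-3 (-0.225). Of the T-cell markers, 9 of 14 were called higher in untreated T-cell lines (5.58% of all genes were called in that direction), and 2 of 14 when treated (1.53% of all genes). Of the ALCL markers, 9 of 12 were called higher in untreated ALCL lines (3.18% of all genes) and 8 of 12 when treated (1.35% of all genes). The per-array median of the 14 T-cell markers lay between 9.12 and 9.76 in untreated T-cell lines, between 7.80 and 8.23 in treated ones, and between 6.62 and 7.77 in ALCL lines. Between untreated cell types, 1 of 9 B-cell markers was called higher in T-cell lines and 1 of 10 myeloid markers in ALCL lines, and between treated ones only 1 myeloid marker, higher in ALCL lines, was called among these lists. Limma called none of 8 erythroid and megakaryocyte markers and none of 10 stromal and endothelial markers between untreated cell types, with 1 of each at an unadjusted p below 0.05. With treatment of the T-cell lines, 4 stromal and endothelial markers rose and 1 fell, and 3 B-cell markers rose and 1 fell, where 21.7% of all genes rose and 20.2% fell. Their part in the results was not tested. Lower RNA per cell and fewer expressing cells cannot be told apart in such bulk samples.

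The 5 genes belong to unrelated families, and as background they act in different places. IGFBP2 is a secreted protein that binds the insulin-like growth factors IGF1 and IGF2 and limits or prolongs their access to the receptor IGF1R. ITM2A is a type II membrane protein with a BRICHOS domain, known as a gene switched on in thymocytes during selection and in activated T cells. TSPAN7, also called CD231 or TALLA-1, is a tetraspanin first described as a surface antigen of T-cell acute lymphoblastic leukaemia. PNMA2 is an intracellular protein of brain and testis, known as the Ma2 antigen of paraneoplastic encephalitis. PRKCB is a protein kinase C that calcium and diacylglycerol activate downstream of antigen receptors in lymphocytes.

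Since 5-aza-2'-deoxycytidine acts at CG dinucleotides, the bases just before the RefSeq transcription starts are shown, with every CG in capitals. Of the 5 genes, IGFBP2, ITM2A and PRKCB were found by symbol in the RefSeq promoter table (GRCh38.p14), and TSPAN7 and PNMA2 were not. Each sequence is the 250 bases before a start, 5′ to 3′ on the strand of the gene: IGFBP2 at chr2:216632578-216632827 on the plus strand (the most upstream of its 3 listed starts), ITM2A at chrX:79367335-79367584 on the minus strand, and PRKCB at chr16:23835733-23835982 on the plus strand.
IGFBP2: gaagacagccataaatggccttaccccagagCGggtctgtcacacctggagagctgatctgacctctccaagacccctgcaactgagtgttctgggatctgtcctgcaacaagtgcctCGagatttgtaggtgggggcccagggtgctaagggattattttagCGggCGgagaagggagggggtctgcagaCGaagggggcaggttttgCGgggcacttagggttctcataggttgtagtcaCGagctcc
ITM2A: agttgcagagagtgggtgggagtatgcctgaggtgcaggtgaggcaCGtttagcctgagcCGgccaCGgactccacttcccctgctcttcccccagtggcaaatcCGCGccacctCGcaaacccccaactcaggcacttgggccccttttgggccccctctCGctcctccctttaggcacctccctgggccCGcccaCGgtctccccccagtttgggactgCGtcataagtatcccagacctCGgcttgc
PRKCB: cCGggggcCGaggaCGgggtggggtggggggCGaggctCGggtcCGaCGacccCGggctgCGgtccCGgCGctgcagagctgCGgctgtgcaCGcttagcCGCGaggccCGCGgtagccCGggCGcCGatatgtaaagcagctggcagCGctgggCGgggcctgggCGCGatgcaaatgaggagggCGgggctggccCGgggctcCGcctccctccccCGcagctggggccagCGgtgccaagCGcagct
The IGFBP2 window held 7 CG dinucleotides, the ITM2A window 11 and the PRKCB window 30. Among 35116 windows of 250 bases before starts of 27305 genes the median was 11. In that set 41.1% of windows had fewer CG than this IGFBP2 window, 49.7% fewer than ITM2A and 87.6% fewer than PRKCB. The other listed IGFBP2 starts had 22 and 4, so a single CG content cannot be given for the gene. Both strands were also searched for the E-box CAGNTG, the RUNX motif TGTGGT, the GATA motif AGATAA and the TATA box TATAAA, none of which contains another. CAGNTG, counted once at a place that matches on both strands, occurred at 2 places in the IGFBP2 window, 1 in that of ITM2A and 2 in that of PRKCB (42.5% of all windows had a match). At the other IGFBP2 starts it had no match. The other 3 motifs had no match in the windows shown, against 11.0%, 9.17% and 10.7% of all windows. DNA methylation was not measured on these arrays, and the windows describe only the letters they hold.

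All values below are log2 RMA values, where a difference of 1 is 2-fold, and the level of a gene is not compared with that of another. The medians of the arrays lay between 6.78 and 6.96. Signal over background could not be judged without detection calls, so folds over values below those medians are uncertain. For the treatment change within a cell type, the value after ± is the standard error of a limma fit with the cell line as a block, and adjusted p values are from that fit with Benjamini-Hochberg adjustment over 11963 genes. The words called, rose and fell mark an adjusted p below 0.05. The changes share their treated arrays with the values that chose the genes, a choice that favours high treated T-cell and low treated ALCL values, so they are not independent of it. Another scaling, centring each array on its hybridisation spikes, moved the median change of all genes from 0.14 to -0.54 in T-cell lines and from 0.09 to -0.52 in ALCL lines, and left 63 genes higher and 2943 lower in T-cell lines. Values under it are given against that median.

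IGFBP2, the secreted binding protein, was far higher in every T-cell line and fell in them on treatment, but kept a distance from the ALCL lines (probe set 202718_at). Without treatment it measured 10.76 in CCRF-CEM, 11.22 in Jurkat, 10.73 in Molt-3 and 10.96 in Molt-4. With treatment it measured 10.71, 10.63, 9.21 and 9.39 in the same order. The 4 untreated T-cell values were all above the treated ones, by 0.02 at the closest, and the loss lay mainly in Molt-3 and Molt-4. In the ALCL lines the untreated values were 5.73 in FE-PD, 6.37 in JB6, 5.42 in SU-DHL-1 and 6.00 in Karpas 299, and the treated values were 6.34, 5.64, 5.49 and 5.85. Untreated and treated ALCL values overlapped, with 2 lines higher and 2 lower. The difference between the cell types was 5.04 ± 0.21 (32.9-fold) untreated and 4.15 ± 0.37 (17.8-fold) treated, with a gap of 2.87 between the lowest treated T-cell and the highest treated ALCL line.

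The change of IGFBP2 was -0.93 ± 0.27 in the T-cell lines, 1.91-fold lower (n = 4 lines, lower in 4 of 4, adjusted p = 0.0221 by limma). In the ALCL lines it was -0.05 ± 0.27 (n = 4 lines, adjusted p = 0.909 by limma). The T-cell call was lost without Molt-3 (adjusted p = 0.11 by limma), without Molt-4 (0.112) and with quantile normalisation of the arrays (0.133). The mean change was -1.55 in Molt-3 and Molt-4, whose treated arrays had the raised 28S control, and -0.32 in CCRF-CEM and Jurkat, whose arrays had not. The part of the 28S rise in this result was not tested, and the same lines also share a patient.

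The other genes of the insulin-like growth factor axis (ligands, receptors, binding proteins and the first signalling steps) were counted beside IGFBP2. Of 24 measured, 1 was called higher in untreated T-cell lines (5.58% of all genes) and 1 in treated ones (1.53% of all genes), with medians of -0.20 and -0.07 against -0.04 and 0.03 over all genes. The treated one was GRB10, an adaptor that restrains insulin and IGF receptors, at 1.18 ± 0.18 above the ALCL lines (adjusted p = 0.00944 by limma). With treatment, 5 of the 24 rose and 1 fell in T-cell lines, where 21.7% of all genes rose and 20.2% fell (0 and 2 with spike centring). IRS2, a docking protein of the receptors, rose by 1.04 ± 0.19 (adjusted p = 0.0025 by limma). FOXO1, a transcription factor that insulin signalling holds back, rose by 0.81 ± 0.15, and IGF2BP2, which binds IGF2 mRNA, by 1.11 ± 0.14 (adjusted p = 0.00256 and 0.000467 by limma). In ALCL lines 4 rose and 1 fell, where 8.04% of all genes rose and 13.4% fell. IGFBP3, the main IGF carrier of serum, rose there by 1.04 ± 0.16 (adjusted p = 0.00208 by limma), in contrast to the -0.05 of IGFBP2, a pair whose difference was not tested. The kinase AKT1 fell in both cell types, with changes of -1.03 ± 0.17 in ALCL and -0.64 ± 0.17 in T-cell lines (adjusted p = 0.00252 and 0.0153 by limma). The T-cell call of AKT1 was lost without Molt-3 or Molt-4 (adjusted p up to 0.0719 by limma).

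**Figure D1:**
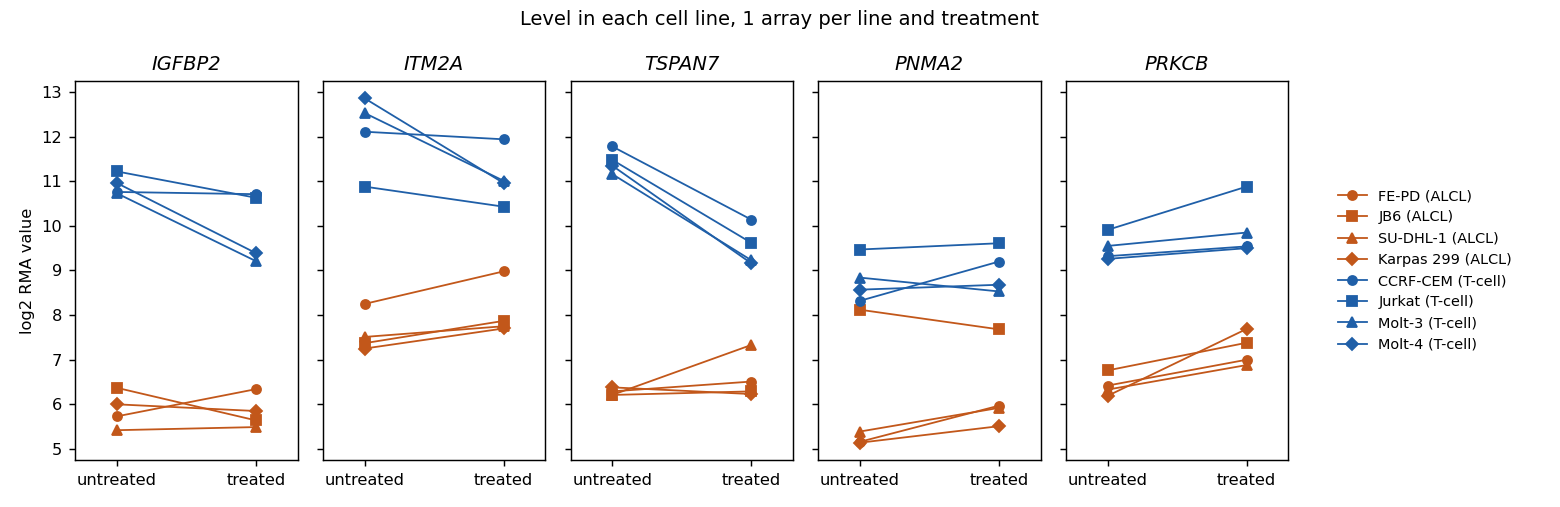
Log2 RMA value (y axis) of each of the 5 genes in each cell line, untreated and treated (x axis); a line joins the 2 arrays of a cell line, blue for T-cell and orange for ALCL lines, with a marker per line. In each panel the 4 treated T-cell values lie above the 4 treated ALCL values; TSPAN7 fell in all 4 T-cell lines, and untreated JB6 at 8.12 comes close to the T-cell lines for PNMA2.

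ITM2A, the BRICHOS membrane protein, was lower in all T-cell lines and higher in all ALCL lines after treatment on its main probe set, 202747_s_at. Without treatment it measured 12.11 in CCRF-CEM, 10.88 in Jurkat, 12.53 in Molt-3 and 12.86 in Molt-4, and with treatment 11.94, 10.43, 11.01 and 10.96. In the ALCL lines FE-PD went from 8.25 to 8.98, JB6 from 7.37 to 7.87, SU-DHL-1 from 7.51 to 7.75 and Karpas 299 from 7.25 to 7.70. FE-PD was the highest ALCL line in both states, and treated and untreated values overlapped within each cell type. The change was -1.01 ± 0.25 in the T-cell lines, 2.02-fold lower (n = 4 lines, adjusted p = 0.0122 by limma), and 0.48 ± 0.25 in the ALCL lines (n = 4 lines, higher in 4 of 4, adjusted p = 0.199 by limma). The difference between the changes was -1.49 ± 0.36, given without a test because its treated arrays chose the gene. The distance between the cell types went from 4.50 ± 0.43 (22.6-fold) untreated to 3.01 ± 0.37 (8.04-fold) treated, with a gap of 1.45 between the treated ranges.

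The T-cell call of ITM2A was lost without Molt-3 (adjusted p = 0.0665 by limma), without Molt-4 (0.0617) and in a fit without the line as a block (0.0791). Its mean change was -1.71 in Molt-3 and Molt-4 and -0.31 in CCRF-CEM and Jurkat, the same division as for IGFBP2. A second probe set of ITM2A, 202746_at, fitted by itself, gave -0.72 ± 0.28 in the T-cell lines (adjusted p = 0.067 by limma) and 0.97 ± 0.28 in the ALCL lines, where it was called (adjusted p = 0.0385 by limma). On that probe set CCRF-CEM was level, at 11.08 untreated and 11.10 treated, and so was Karpas 299, at 4.05 and 4.06. FE-PD went from 5.58 to 7.10, JB6 from 3.80 to 5.35 and SU-DHL-1 from 3.93 to 4.74. The cell types did not overlap on either probe set in either state, but the probe sets disagreed on which cell type's change passed the test. The untreated ALCL values of the second lay between 3.80 and 5.58, near the lowest value of the whole table (3.36), so no fold is given for it.

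The relatives of ITM2A were not called between the cell types. Of 6 other measured genes with a BRICHOS domain, none was called between the cell types, untreated or treated, by limma, and at an unadjusted p below 0.05 the count was also 0. In the T-cell lines 3 of the 6 rose (ITM2C, TNMD and SFTPC), where 21.7% of all genes rose, with a median change of 0.36 against 0.14 for all genes (-0.32 against -0.54 with spike centring). ITM2C, the brain-rich member of the ITM2 family, rose by 0.73 ± 0.18 in T-cell lines and 1.03 ± 0.18 in ALCL lines (adjusted p = 0.0113 and 0.00358 by limma). The T-cell call of ITM2C was lost without Molt-3 (adjusted p = 0.0609 by limma). TNMD and SFTPC, genes of tendon and lung, changed by 0.43 and 0.50. With spike centring these changes were -0.256 and -0.181, against a median of -0.54 over all genes. The call of TNMD was also lost without Jurkat, Molt-3 or Molt-4 (adjusted p up to 0.16 by limma).

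TSPAN7, the leukaemia-associated tetraspanin, had the clearest fall of the 5 genes in the T-cell lines (probe set 202242_at). Without treatment it measured 11.78 in CCRF-CEM, 11.48 in Jurkat, 11.16 in Molt-3 and 11.35 in Molt-4, and with treatment 10.14, 9.62, 9.23 and 9.16. The treated and untreated T-cell values stood 1.02 apart, and the 4 changes lay between -2.19 and -1.64. In the ALCL lines the untreated values were 6.29 in FE-PD, 6.21 in JB6, 6.21 in SU-DHL-1 and 6.38 in Karpas 299, with a standard deviation of 0.08, and the treated values were 6.51, 6.29, 7.33 and 6.23. Only SU-DHL-1 moved by more than 1 among the ALCL lines. The change in T-cell lines was -1.90 ± 0.19, 3.74-fold lower (n = 4 lines, adjusted p = 0.000161 by limma), and in ALCL lines 0.32 ± 0.19 (n = 4 lines, adjusted p = 0.252 by limma). The T-cell call held in all 20 alternatives run, with adjusted p values from 9.37e-08 to 0.0152 by limma. It was -1.75 in CCRF-CEM and Jurkat and -2.06 in Molt-3 and Molt-4, so it was also present in the lines without the raised 28S control.

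Even so, TSPAN7 remained apart: the difference went from 5.17 ± 0.14 (36-fold) untreated to 2.95 ± 0.30 (7.72-fold) treated, and the treated ranges lay 1.83 apart. Treated T-cell lines were also 9.63-fold above the untreated ALCL lines. Among 25 other measured tetraspanins, membrane organisers with 4 spans, limma called none higher in T-cell lines, untreated (5.58% of all genes) or treated (1.53%). At an unadjusted p below 0.05 there were 0 untreated and 1 treated. In ALCL lines 3 were called higher when untreated (3.18% of all genes) and 1 when treated (1.35%). The treated one was CD63, a tetraspanin of lysosomes and exosomes, 2.45 ± 0.47 higher in ALCL lines (adjusted p = 0.0285 by limma, and up to 0.0838 when any of JB6, SU-DHL-1, Karpas 299, Molt-3 or Molt-4 was left out). The untreated calls, of CD53, CD63 and CD151, were lost in 6, 5 and 7 of 8 fits with a line left out. With treatment 9 of the 25 rose and 2 fell in T-cell lines (21.7% and 20.2% of all genes), with a median of 0.38 against 0.14 for all genes. With spike centring 1 rose and 5 fell, with a median of -0.30 against -0.54. In ALCL lines 3 rose and 2 fell (8.04% and 13.4% of all genes), with a median of 0.13 against 0.09. TSPAN13 rose in both, by 2.24 ± 0.21 in T-cell and 1.82 ± 0.21 in ALCL lines (adjusted p = 0.000118 and 0.000495 by limma). CD53, a tetraspanin of leukocytes, fell in both, with changes of -1.36 ± 0.33 and -1.69 ± 0.33 (adjusted p = 0.0106 and 0.00593 by limma).

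**Figure D2:**
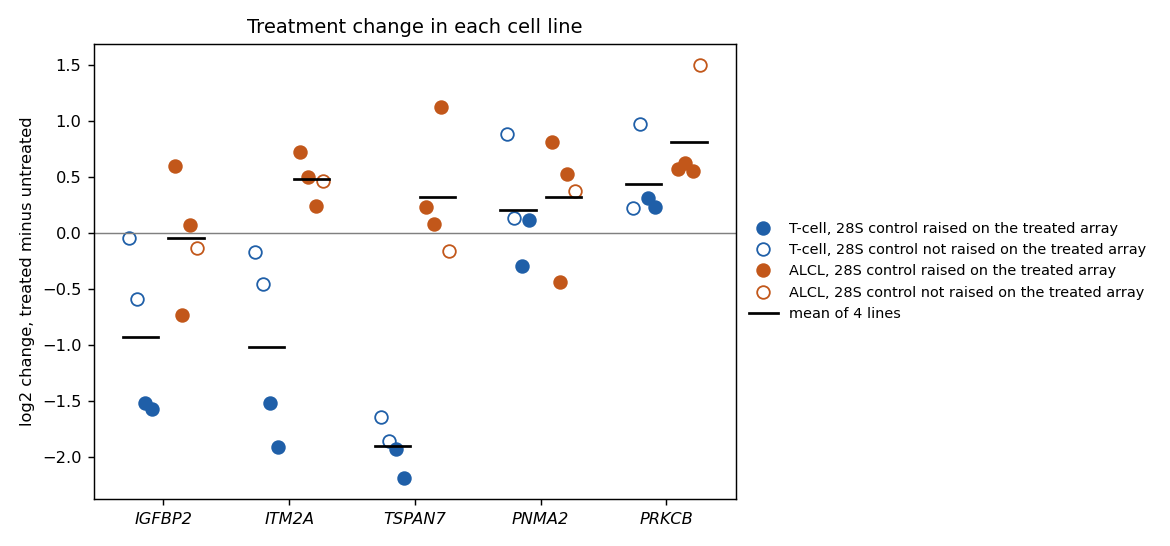
Log2 change, treated minus untreated (y axis), of each gene (x axis) in each cell line, 1 point per line; blue is T-cell, orange ALCL, filled points are lines whose treated array had the raised 28S control, and bars are means of 4 lines. For IGFBP2 and ITM2A the filled T-cell points (means -1.55 and -1.71) lie below the open ones (-0.32 and -0.31), while for TSPAN7 all 4 T-cell points lie between -2.19 and -1.64.

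PNMA2, the paraneoplastic antigen, had small mean changes in both cell types and was high in 1 ALCL line. The T-cell lines measured 8.32 in CCRF-CEM, 9.47 in Jurkat, 8.84 in Molt-3 and 8.57 in Molt-4 untreated, and 9.20, 9.61, 8.53 and 8.68 treated. The ALCL lines measured 5.16 in FE-PD, 8.12 in JB6, 5.39 in SU-DHL-1 and 5.14 in Karpas 299 untreated, and 5.97, 7.68, 5.92 and 5.51 treated. JB6 alone of the ALCL lines came near the T-cell lines, 0.20 below the lowest of them when untreated and 0.85 when treated. The change was 0.20 ± 0.22 in T-cell lines (n = 4 lines, adjusted p = 0.46 by limma) and 0.32 ± 0.22 in ALCL lines (n = 4 lines, adjusted p = 0.319 by limma), with 3 of 4 lines higher in each. CCRF-CEM supplied most of the T-cell mean, at 0.88, and without it the mean was -0.02. The difference between the cell types was 2.85 ± 0.66 (7.20-fold) untreated and 2.74 ± 0.45 (6.67-fold) treated, the widest errors of the 5 genes.

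The contrast of PNMA2 was seen on 1 of its 2 probe sets. The other, 209597_s_at, lay between 6.41 and 7.23 in all 16 arrays, with T-cell lines -0.15 ± 0.13 untreated and -0.15 ± 0.19 treated relative to ALCL lines. Which transcripts each probe set reads was not examined here, so the contrast belongs to probe set 209598_at. Of 4 other measured genes of the PNMA family, limma called none between the cell types; at an unadjusted p below 0.05, 1 was higher and 2 lower in untreated T-cell lines and 0 differed in treated ones. MOAP1, a binding partner of BAX in cell death, rose in ALCL lines by 1.22 ± 0.27 (adjusted p = 0.011 by limma, and 0.0594 without JB6). As PNMA2 is known from brain, neuronal genes were also counted: 8 of 14 neuronal markers rose in T-cell lines (21.7% of all genes) and 2 in ALCL lines (8.04%), with median changes of 0.49 and 0.30. These counts were 5 and 0 with median centring, and 0 and 0 with spike centring. There the medians were -0.19 and -0.31, against -0.54 and -0.52 over all genes. PNMA2, at 0.20 and 0.32, was not called in either.

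**Figure D3:**
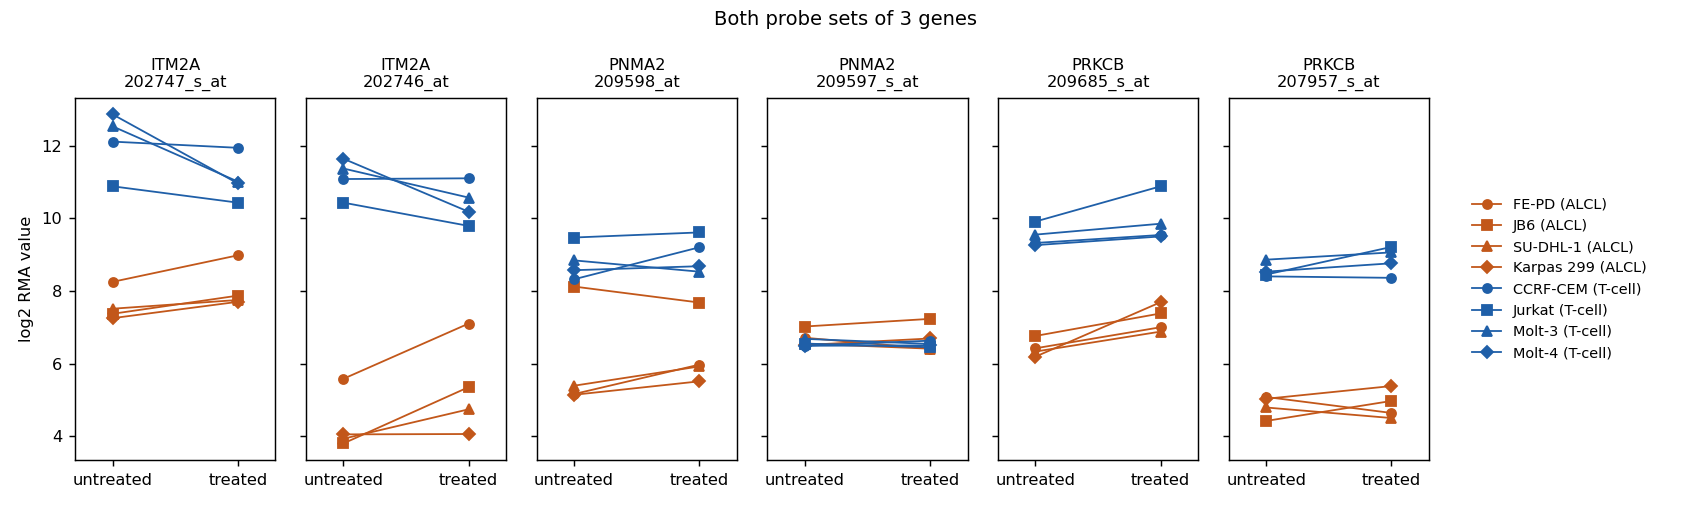
Log2 RMA value (y axis) of both probe sets of ITM2A, PNMA2 and PRKCB in each cell line, untreated and treated (x axis); blue is T-cell, orange ALCL, and a line joins the arrays of a cell line. Both probe sets of ITM2A and PRKCB put the cell types apart, whereas 209597_s_at of PNMA2 lies between 6.41 and 7.23 in all lines.

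PRKCB, the protein kinase C, was the only one of the 5 genes called higher after treatment on its main probe set, 209685_s_at, and this in the ALCL lines. These measured 6.42 in FE-PD, 6.76 in JB6, 6.33 in SU-DHL-1 and 6.19 in Karpas 299 untreated, and 7.0, 7.38, 6.88 and 7.69 treated. All 4 treated ALCL values lay above all 4 untreated ones, by 0.12 at the closest, and Karpas 299, the lowest untreated line, became the highest. The T-cell lines measured 9.32 in CCRF-CEM, 9.91 in Jurkat, 9.55 in Molt-3 and 9.26 in Molt-4 untreated, and 9.54, 10.88, 9.85 and 9.50 treated. Jurkat was the highest in both states and changed by 0.97, the other lines by 0.31 or less. The change was 0.81 ± 0.19 in ALCL lines, 1.75-fold higher (n = 4 lines, adjusted p = 0.0137 by limma), and 0.43 ± 0.19 in T-cell lines (n = 4 lines, higher in 4 of 4, adjusted p = 0.087 by limma). The T-cell change passed the test when Karpas 299 was left out (adjusted p = 0.0463 by limma) and with quantile normalisation (0.00548). The ALCL call was lost in a fit without the line as a block (adjusted p = 0.0719 by limma). On the second probe set of PRKCB, 207957_s_at, the ALCL change was 0.04 ± 0.19 (adjusted p = 0.886 by limma), with 2 lines higher and 2 lower. The distance between the cell types was 3.08 ± 0.18 (8.48-fold) untreated and 2.71 ± 0.32 (6.52-fold) treated, and on the second probe set 3.73 and 3.97.

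PRKCH, PRKCQ and RASGRP1, other genes of diacylglycerol signalling, started higher in the T-cell lines, as PRKCB did, and fell there on treatment. Of 24 other measured genes of protein kinase C and diacylglycerol signalling, 5 were called higher and 1 lower in untreated T-cell lines (5.58% and 3.18% of all genes). In treated T-cell lines 1 was called higher and 1 lower (1.53% and 1.35% of all genes). In the T-cell lines 7 of the 24 fell and 4 rose (20.2% and 21.7% of all genes), with a median of -0.20 against 0.14 over all genes. With quantile normalisation 5 fell and 4 rose (median 0.05), and with spike centring 8 fell and 0 rose (median -0.88 against -0.54). PRKCH, a calcium-independent protein kinase C of lymphocytes, was 3.08 ± 0.48 higher in untreated T-cell lines (adjusted p = 0.00769 by limma), the same distance as PRKCB, and fell by 2.46 ± 0.31 with treatment (adjusted p = 0.000428 by limma). PRKCQ, the isoform of the T-cell synapse, started 1.55 ± 0.21 higher and fell by 1.05 ± 0.18 (adjusted p = 0.00399 and 0.00189 by limma). RASGRP1, through which diacylglycerol activates Ras in T cells, started 2.83 ± 0.26 higher and fell by 2.1 ± 0.18 (adjusted p = 0.000732 and 8.1e-05 by limma). DGKA, which consumes diacylglycerol, fell by 1.10 ± 0.14 (adjusted p = 0.000416 by limma). These 4 falls passed the test in every alternative run for them, whereas PRKCB was at 0.43 (-0.25 with spike centring, where the median of all genes was -0.54). The difference between PRKCB and these genes was not tested. PRKCB was chosen for a large treated difference, which favours genes without such a fall, so this contrast is partly set by the choice.

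Between treated cell types the genes called in that list were a substrate and a scaffold. MARCKSL1, a membrane-bound kinase C substrate, was 3.41 ± 0.53 higher in untreated T-cell lines (adjusted p = 0.00768 by limma) and 1.62 ± 0.25 higher in treated ones (adjusted p = 0.0103 by limma). Its mean was 11.85 untreated and 11.59 treated in T-cell lines, and 8.44 untreated and 9.97 treated in ALCL lines. AKAP12, a scaffold for kinases A and C, rose by 2.61 ± 0.21 in ALCL lines (adjusted p = 0.000122 by limma), from between 5.26 and 7.41 to between 7.99 and 10.36. In T-cell lines AKAP12 was also higher on the treated arrays, from between 5.18 and 5.72 to between 6.35 and 6.47. When treated it was 2.58 ± 0.44 higher in ALCL lines (adjusted p = 0.0157 by limma, and up to 0.061 without Molt-3 or Molt-4). In the ALCL lines 3 of the 24 rose (8.04% of all genes) and limma called none lower (13.4% of all genes), with 1 lower at an unadjusted p below 0.05.

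Counted together, 3 of the 5 genes fell in T-cell lines (20.2% of all genes) and none was called higher there by limma (21.7% of all genes), where at an unadjusted p below 0.05 PRKCB was higher. In ALCL lines 1 of 5 rose (8.04% of all genes) and none was called lower by limma (13.4% of all genes), nor at an unadjusted p below 0.05. As these contrasts share the treated arrays that chose the genes, nothing is read from the counts. The median change of the 5 was -0.93 in T-cell lines against 0.14 over all genes, and 0.32 in ALCL lines against 0.09. All 5 genes had untreated T-cell values above all ALCL values, as did 9.74% of all genes, and all 5 did so when treated, as did 5.85% of all genes, the contrast by which they were chosen. In untreated cells their ranks by the difference were 2 for TSPAN7, 3 for IGFBP2, 5 for ITM2A, 35 for PRKCB and 56 for PNMA2.

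Genes that started equally far apart give a scale for these values. With PNMA2's 2.85 as the limit, 50 genes had at least that untreated difference and no overlap, the 5 and 45 others. Of the 45 others, 24 were still without overlap when treated (5.85% of all genes), and their median difference went from 3.18 to 0.958. In T-cell lines 39 of the 45 fell and none rose (20.2% and 21.7% of all genes), with a median change of -2.11. In ALCL lines 7 rose and none fell (8.04% and 13.4% of all genes), with a median of 0.267. LCK, the kinase of the T-cell receptor, started farthest apart, at 5.70, and was at 1.83 when treated. TRBC1, the constant part of the T-cell receptor beta chain, went from 4.49 to 2.50. Since the 5 genes were chosen for a large treated difference, their place above these genes is set by the choice. The 45 others were picked by a large untreated difference, which favours high untreated T-cell and low untreated ALCL values. Their changes toward a smaller difference are therefore partly set by that pick.

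**Figure D4:**
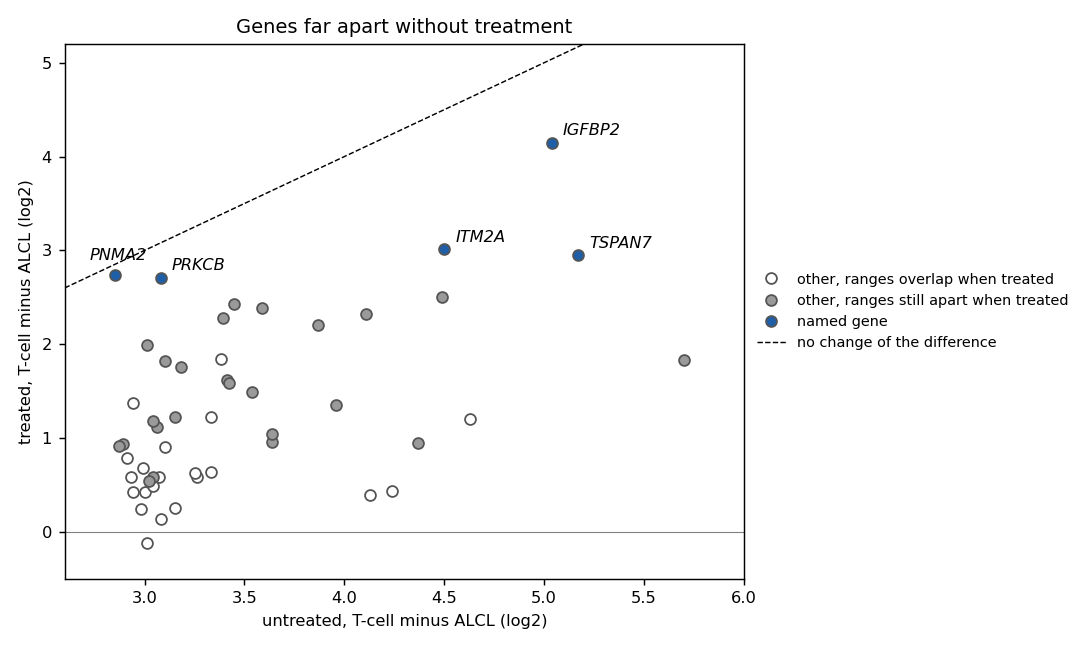
Difference between T-cell and ALCL lines (log2 of the means of 4 lines each) treated (y axis) against untreated (x axis) for the 50 genes with an untreated difference of at least 2.85 and no overlap of lines; blue points are the 5 named genes, grey points others still without overlap when treated, open points others that overlap, and the dashed line marks an unchanged difference. All 50 lie below the dashed line, PNMA2 at 2.85 and 2.74 closest to it. The 50 were picked by the untreated difference, which favours places below the line.

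The genes whose pattern was most like each of the 5 were named by Pearson's r over the 16 arrays, which come from 8 lines and are divided into the same 2 cell types, so r mixes that division with the changes on treatment. For IGFBP2 they were TSPAN7 (r = 0.965), TCF7L2 (0.962) and BTBD3 (0.954). For TSPAN7 they were BTBD3 (0.966), IGFBP2 (0.965) and FAT1 (0.962), and for ITM2A, MGA (0.96), ZSCAN18 (0.95) and ZNF443 (0.946). For PNMA2 they were PTK7 (0.923), RAPGEF6 (0.902) and TCF7L2 (0.895), and for PRKCB, NDN (0.943), TBC1D1 (0.932) and MAGED1 (0.929). Within the 8 arrays of a cell type the likeness of IGFBP2 and TSPAN7 was 0.817 in T-cell and -0.276 in ALCL lines. Within the T-cell arrays, which are 4 lines in both states, ITM2A and PRKCB had r = -0.758 on their main probe sets. On these, ITM2A was lower and PRKCB higher on the treated array in all 4 lines. On the other probe sets CCRF-CEM changed by 0.02 for ITM2A and by -0.04 for PRKCB.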

How the data were processed

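The authors deposited log2 values; the submitters' processing notes name R 2.10.1 and RMA (robust multi-array average). Probe set definitions, filters and detection calls were not used here, and the values ran from 3.36 to 14.4. Groups came from the labels' cell line, cell type and treatment. Each gene was read by its probe set with the highest mean over 16 arrays, and symbols came from the platform annotation.

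Treatment changes were tested with limma 3.58.1 in R 4.3.3, two-sided, with line as a block in 1 fit of all 16 arrays (6 residual degrees of freedom). Differences between cell types used 8 arrays each, and those of the 5 genes carry no test. The pairing comes from the same line in both states. Deviations from group means correlated at 0.33 to 0.643 within a line, and at -0.342 to 0.399 between lines. These ranges overlap: untreated Molt-4 correlated at 0.399 with treated Molt-3 and at 0.33 with its own treated array. The fit was tested on simulated data.

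The 5 genes and all lists (5 families and markers of T-cell, ALCL, neuronal and other cell types) were chosen with earlier results of these data known. In each family and comparison, up to 4 called genes were eligible for naming: those with the largest difference that moved alike in all 4 lines or did not overlap, and some were left unnamed. For each gene the 3 most alike genes are named. Alternatives were a fit without the block, line as a random block, 1 cell type alone, a variance trend, removal of the lowest 40% of genes, Molt-3 and Molt-4 averaged, the mean of probe sets, the other probe set, 3 scalings, each line left out, and lines with or without the 28S rise.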

Additional observations from a re-analysis of the deposited data

Results flagged for a closer look

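Of 48 groups of 4 values of the 5 genes' probe sets, 5 had a highest or lowest value set off from the others by Dixon's criterion, and chance gives about 1 in 20. FE-PD stood above the other ALCL lines for ITM2A, at 5.58 untreated on the second probe set (next line 4.05) and at 8.98 treated on the main one (next 7.87). JB6 stood above them for PNMA2 untreated, at 8.12 (next 5.39). For PRKCB the change of 0.97 in Jurkat was set off from the other T-cell lines (next 0.31), and that of 1.5 in Karpas 299 from the other ALCL lines (next 0.62).

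On its main probe set, ITM2A was lower in all 4 T-cell lines and higher in all 4 ALCL lines after treatment. The difference between the changes, -1.49, was not tested.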

How the results depend on the processing

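Of 126 counts of the 5 genes under the alternatives, 116 stayed within 1.5 times and 10 moved. The count that fell in T-cell lines, 3, was 1 (TSPAN7) with Molt-3 and Molt-4 averaged and in the lines without the 28S rise, and 1 to 3 with a line left out, 1 without Molt-3 or Molt-4. The count that rose there, 0, was 2 (PNMA2 and PRKCB) with quantile normalisation and 0 to 1 with a line left out. The count that rose in ALCL lines, 1 (PRKCB), was 0 without the pairing of lines (no replicate block), with the mean of probe sets, with spike centring and in the line without the 28S rise. Directions turned as follows. With spike centring the ALCL changes were -0.13 for ITM2A, -0.29 for TSPAN7 and -0.29 for PNMA2, against a median of -0.52 over all genes. The T-cell changes were -0.48 for PNMA2 and -0.25 for PRKCB, against a median of -0.54. Each of these values lay above the median of all genes, as it did with the deposited scaling. The ALCL change of IGFBP2 was between -0.27 and 0.18 with a line left out, 0.18 without JB6, and that of TSPAN7 -0.16 in the line without the 28S rise. The T-cell change of PNMA2 was -0.02 to 0.37 with a line left out, -0.02 without CCRF-CEM, -0.10 in the lines with the 28S rise and -0.02 on the other probe set, where its ALCL change was -0.02 and the differences between cell types -0.15 and -0.15. The causes were not tested. Apart from that probe set, all treated differences kept their direction, from 1.29 for PNMA2 with the mean of probe sets to 5.10 for ITM2A on its second probe set. The ranges of the cell types stayed apart for only 4 of the 5 genes in some alternatives, where those of PNMA2 overlapped. This was so in both states with spike centring and on the other probe set, and in untreated cells with the mean of probe sets. Signal over background could not be judged without detection calls.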
